A study of Mus musculus with 2 samples.

Results

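The contacts described here are the 538 HindIII sites on mouse chromosome 17 that lie 5 to 15 Mb from the start of Pou5f1 and were listed as ligated to its upstream enhancer. They were taken by position alone from a table of 1806 contacted sites, of which 1216 lie on chromosome 17. Pou5f1 encodes Oct4, a transcription factor of pluripotent cells, and its gene record starts at base 35642982 of chromosome 17 on mm9. A total of 174 sites lie on the side of lower coordinates (the left arm) and 364 on the side of higher coordinates (the right arm).

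Both libraries came from mouse embryonic stem (ES) cells of the established line E14, kept in serum with LIF, and they form 1 group of 2 replicates with no control or treated group. The files hold no expression values, so ES cell markers could not be checked. Only positions are given, with no number of reads at any site, so the depth behind a site is unknown, although the study gives mapped totals for each library. In the site table the replicates are not separated, and it is limited to regions that overlap between them, taken at the extent of replicate 1 (351 of the 364 right sites also lie inside a region of replicate 2). A HindIII motif that is not listed is therefore not shown to lack contact.

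In this kind of 4C-Seq, HindIII cuts the cross-linked chromatin, nearby ends are ligated, DpnII trims the products, which are closed into circles, and the partners of one bait sequence are amplified and sequenced. A partner can be seen only where a HindIII motif lies. The chance of joining falls with distance along the chromosome, and stretches of active, gene-rich chromatin of 1 chromosome are known to meet more often with each other than with silent stretches. Sites on either side of a bait allow gene content to be compared at overlapping distances, although the range here was wider on the right.

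The fragments below show what a listed site looks like on the plus strand of mm9, and what a motif that was not listed can look like. Capitals mark the HindIII motif and the DpnII motifs, the pair of cuts that set the ends of an amplified fragment. The first pair lay closest to a gene start among the listed sites with unique flanks, at least 20 bases to the next DpnII motif and a fragment wholly outside exons. They lay 45 bp upstream of Ccdc64b in the left arm (chr17:23797445-23797487) and 163 bp upstream of Taf8 in the right arm (chr17:47639404-47639446). The sites nearest the middle of the longest run of listed motifs, outside exons, lay in an intron of Atp6v0c (chr17:24305187-24305397) and of Aars2 (chr17:45655971-45656008). The last pair shows unlisted motifs, at 235 bp upstream of Prss21 (chr17:24004758-24004823) and 302 bp upstream of Trem1 (chr17:48371571-48371636), with 0 and 8 bases between the HindIII and the nearest DpnII motif.

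Left, listed, beside Ccdc64b: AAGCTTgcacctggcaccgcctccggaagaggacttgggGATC
Right, listed, beside Taf8: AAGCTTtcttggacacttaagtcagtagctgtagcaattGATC
Left, listed, in Atp6v0c: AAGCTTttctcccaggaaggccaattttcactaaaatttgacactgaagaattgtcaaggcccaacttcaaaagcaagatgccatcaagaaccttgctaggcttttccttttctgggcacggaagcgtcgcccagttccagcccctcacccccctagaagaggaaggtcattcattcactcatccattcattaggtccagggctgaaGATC
Right, listed, in Aars2: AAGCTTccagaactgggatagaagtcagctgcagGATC
Left, unlisted, beside Prss21: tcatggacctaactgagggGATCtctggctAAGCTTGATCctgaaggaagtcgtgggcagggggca
Right, unlisted, beside Trem1: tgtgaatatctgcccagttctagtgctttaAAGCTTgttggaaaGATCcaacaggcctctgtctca

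All 538 sites fell into 1 enriched region on each side. In the left arm, the region of replicate 1 ran from 23614148 to 25191529 (1.58 Mb, 10.5 to 12.0 Mb from Pou5f1), and that of replicate 2 was wider, from 23510057 to 25343059 (1.83 Mb). In the right arm, replicate 1 had a single region from 45237635 to 48740953 (3.50 Mb, 9.59 to 13.1 Mb away). Replicate 2 had 2 regions there, from 45265919 to 46194057 (0.928 Mb) and from 46303487 to 48702962 (2.40 Mb). The replicates thus differed at the outer ends of the right arm and by a stretch of 109 kb within it, which holds 32 HindIII motifs, 9 of them listed, and the genes Mrps18a, Rsph9, Mad2l1bp and Gtpbp2. A further left region at 25632877 to 26321335 (0.688 Mb, 9.32 to 10.0 Mb away) was called in replicate 1 alone, and 0 of its 145 motifs are in the table. Of the motifs from 5 to 15 Mb, the regions of replicate 1 covered 19.7% of 2716 on the left and 30.2% of 3096 on the right, against 16.6% and 28.6% in replicate 2.

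In the parts covered by replicate 1, to which all listed sites belong, 174 of 390 motifs were listed in the left arm (44.6%, exact 95% interval 39.6 to 49.7%) and 364 of 934 in the right arm (39.0%, interval 35.8 to 42.2%). Over all reproducible regions of chromosome 17 outside the site-free stretch around Pou5f1, the arms included, 29.4% of 4139 motifs were listed. The difference between the arms of 5.64 percentage points did not pass the test (two-sided Fisher's exact test, adjusted p = 0.0862 by Benjamini-Hochberg over 6 tests). By the same exact test it was 8.18 points when motifs with repeated flanks were left out (adjusted p = 0.0185) and 4.91 points over the stretches covered by both replicates (adjusted p = 0.163). Over the whole regions of replicate 2 it was -1.21 points (exact test, adjusted p = 0.815), but these include 62 left motifs outside the extent of replicate 1, where the table lists no site in either arm, so that value is set by the extent of the table. Neighbouring motifs share chromatin and are not independent, so these p-values and all intervals cover counting error only.

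Compared with the regions at 15 to 33 Mb, where 232 of 1089 motifs were listed (21.3%, interval 18.9 to 23.9%), the 5 to 15 Mb regions held 538 of 1324 (40.6%, interval 38.0 to 43.3%). The difference of 19.3 points passed the test (Fisher's exact test, adjusted p = 8.19e-24). It was 19.3 and 19.4 points against either of the farther regions alone. Both sets lie in regions that the authors called by contact frequency, so the test compares called regions and not distance at large. G+C content was below 42% around 136 of 1324 motifs here and 404 of 1089 farther out. Among these motifs the listed shares were 28.7 and 11.6%, and at 50% G+C or more 55.2 and 39.3%. With unique flanks only (93.3 and 85.3% of motifs) the difference was 18.6 points. An effect of distance was not tested.

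Along each region the listed share was uneven (see the plot of windows by distance). Windows of 50 consecutive motifs held between 12 and 32 listed sites in the left arm and between 9 and 33 in the right arm, leaving aside the shorter last windows. The left window with the most sites spanned 24610448 to 24853797 and held 32 sites (64.0%, interval 49.2 to 77.1%) and 15 gene starts from Mlst8 to Tbl3, among them Pkd1 and Tsc2. A window holding Pdpk1, Amdhd2, Atp6v0c, Tbc1d24 and Ccnf followed with 30. The right window with the most sites spanned 47663656 to 47863435 and held 33 sites (66.0%, interval 51.2 to 78.8%), with the starts of Bysl, Med20, Usp49, Tomm6, Prickle4 and Frs3. A window with 31 sites held Aars2, Tcte1, Nfkbie, Slc35b2, Hsp90ab1 and Slc29a1.

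The sparsest windows lay toward the edges of the regions. In the left arm the window farthest from Pou5f1, at 23614148 to 23782812, held 12 sites (24.0%) and the starts of 6 genes, including the vomeronasal receptor gene Vmn2r117 and the zinc finger genes Zfp213 and Zfp13. Of its motifs, 16% lay in a gene. The right window nearest Pou5f1, at 45237635 to 45460890, had 0 gene starts and 11 sites (22.0%). The 2 full right windows farthest away, at 48315510 to 48479054 and 48481301 to 48655518, held 9 and 10 sites and carry the Trem receptor genes, Nfya and Apobec2. The windows are named here for their listed share, so their contrast is a description only.

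**Figure D1:**
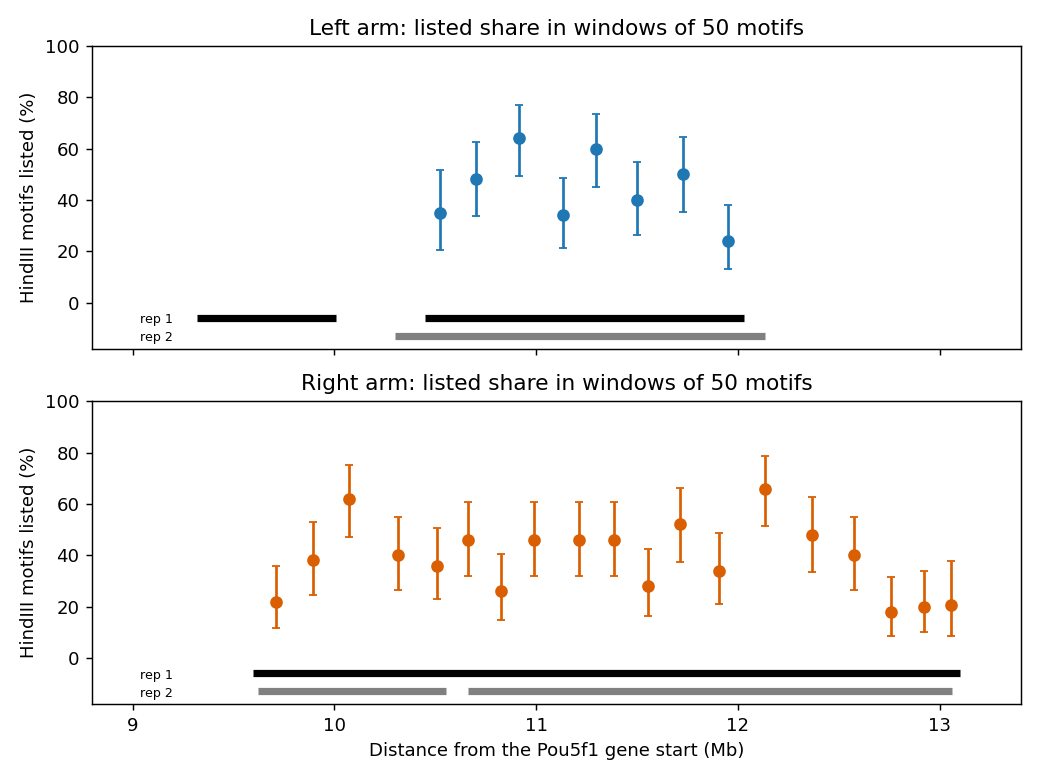
Share of HindIII motifs listed (%, y axis) in windows of 50 consecutive motifs against their mean distance from the Pou5f1 gene start (Mb, x axis), left arm above and right arm below; points are windows, bars are exact 95% intervals, and the last window of each arm is shorter. Black and grey lines mark the enriched regions of replicates 1 and 2. The share ranged from 24.0 to 64.0% in the left arm and from 18.0 to 66.0% in the right arm.

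The left arm was the more gene-dense. It held 83 protein-coding gene starts in 1.58 Mb (52.6 per Mb) and the right arm 90 in 3.50 Mb (25.7 per Mb), against 11.5 per Mb for chromosome 17 as a whole. Genes covered 67.0% of the left and 51.1% of the right region. HindIII motifs were about as frequent in both, at 247 and 267 per Mb, and listed sites numbered 110 and 104 per Mb. There were 2.10 listed sites for each gene start on the left and 4.04 on the right.

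Inside protein-coding genes lay 122 of the 174 left sites (70.1%, interval 62.7 to 76.8%) and 217 of the 364 right sites (59.6%, interval 54.4 to 64.7%). The difference of 10.5 points had an adjusted p of 0.0437 (Fisher's exact test, Benjamini-Hochberg). The call was lost, by the same exact test, when only the stretches covered by both replicates were used (9.72 points, adjusted p = 0.0679) and when the right arm was limited to the distances of the left region (1.96 points, adjusted p = 0.826). The gap was wider among all motifs, listed or not, with 62.6% of left and 48.2% of right motifs inside a gene. The test on listed sites therefore shows no difference beyond that in where the motifs lie.

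Within each arm, a motif inside a gene was listed more often than a motif outside. On the left, 122 of 244 motifs in genes were listed (50.0%, interval 43.5 to 56.5%) and 52 of 146 outside (35.6%, interval 27.9 to 44.0%). On the right the shares were 217 of 450 (48.2%, interval 43.5 to 53.0%) and 147 of 484 (30.4%, interval 26.3 to 34.7%). Most genic sites were intronic, with 94 left and 177 right sites in introns (46.8% and 46.3% of intronic motifs listed). Motifs in coding sequence were few, but 21 of 26 on the left (80.8%, interval 60.6 to 93.5%) and 18 of 27 on the right (66.7%, interval 46 to 83.5%) were listed. In untranslated exon parts, 10 of 18 and 15 of 26 were listed. These shares within an arm are given as a description, without a test.

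The arms differed most in their sites near gene starts. Within 5 kb of a protein-coding gene start lay 90 of 174 left sites (51.7%, interval 44.0 to 59.4%) and 85 of 364 right sites (23.4%, interval 19.1 to 28.0%). This difference of 28.4 points passed the test (Fisher's exact test, adjusted p = 3.11e-10) and was 26 points at the distances of the left region (adjusted p = 2.16e-06). Among all motifs, 38.5% of left and 19.4% of right motifs lay within 5 kb of a start. A large part of the difference was thus already present among the motifs that could be listed, and the test does not separate that part. No share of all motifs at the distances of the left region was set beside the 26 points.

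When the denominator was the motifs themselves, 90 of 150 motifs within 5 kb of a start were listed on the left (60%, interval 51.7 to 67.9%) and 85 of 181 on the right (47.0%, interval 39.5 to 54.5%). Beyond 5 kb the arms were close, at 84 of 240 (35.0%, interval 29.0 to 41.4%) and 279 of 753 (37.1%, interval 33.6 to 40.6%). Left shares were 65.7% of 35 motifs below 1 kb, 57.9% of 38 from 1 to 2 kb and 58.4% of 77 from 2 to 5 kb, and then 35.2% of 88 from 5 to 10 kb. Right shares went from 46.9% of 32 motifs below 1 kb to 41.8% of 158 at 5 to 10 kb and 33% of 200 beyond 50 kb. The median distance to a gene start was 4554 bp for listed and 9104 bp for unlisted motifs on the left, and 13790 and 18191 bp on the right.

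Base composition moved with these shares. Over 500 bases on each side, listed motifs had a median G+C content of 49.2% on the left and 49.1% on the right, and unlisted motifs 46.4 and 47.0%. Among motifs at 50% G+C or more, 74 of 117 left (63.2%) and 148 of 285 right motifs (51.9%) were listed, while below 42% the counts were 15 of 50 (30%) and 24 of 86 (27.9%). Among left motifs at 50% or more, 47 of 62 within 5 kb of a start (75.8%, interval 63.3 to 85.8%) and 27 of 55 beyond (49.1%, interval 35.4 to 62.9%) were listed. On the right the same classes gave 38 of 67 (56.7%, interval 44.0 to 68.8%) and 110 of 218 (50.5%, interval 43.6 to 57.3%). In the lower classes, near and far from a start, the left shares were 45.1 and 37.3% at 46 to 50% G+C, 45.5 and 32% at 42 to 46%, and 66.7 and 14.3% below 42%. The right shares were 50.8 and 37.2%, 25 and 26.4%, and 38.5 and 26.0%. In the right arm at 42 to 46% the share near starts was thus not higher, with 9 of 36 against 53 of 201 motifs. The classes below 42% were small near starts, with 10 of 15 left (interval 38.4 to 88.2%) and 5 of 13 right motifs listed (interval 13.9 to 68.4%). Far from starts the counts were 5 of 35 (interval 4.81 to 30.3%) and 19 of 73 (interval 16.5 to 37.6%). The part of base composition in the gene results was not tested further.

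**Figure D2:**
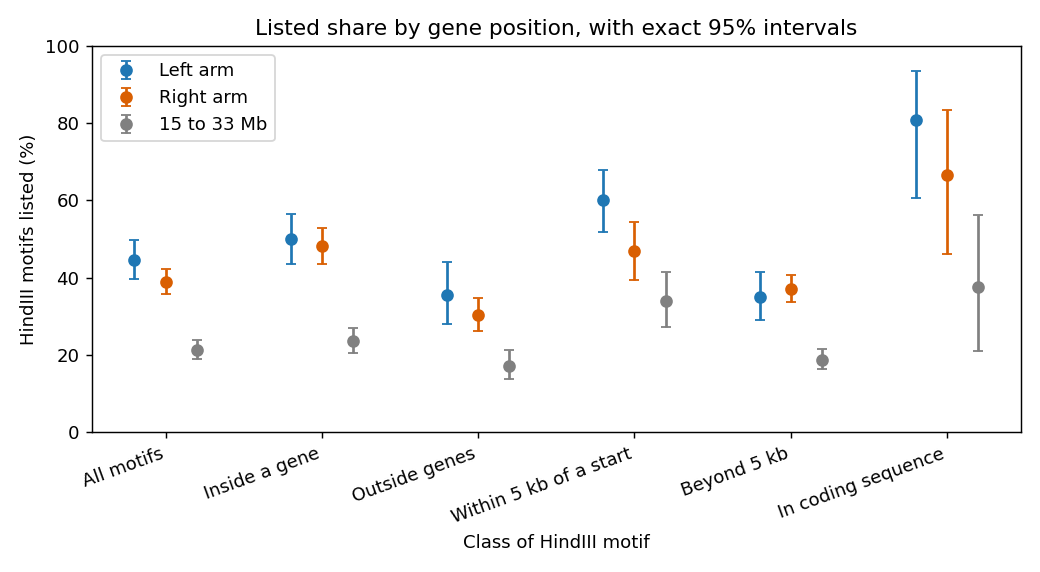
Share of HindIII motifs listed (%, y axis) by class of motif (x axis) in the left arm (blue), the right arm (orange) and the regions at 15 to 33 Mb (grey); points are shares and bars exact 95% intervals. Within 5 kb of a gene start 60% of left, 47.0% of right and 34.1% of 15 to 33 Mb motifs were listed, and beyond 5 kb 35.0, 37.1 and 18.7%.

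With genes as the unit, both arms had shares near that of all chromosome 17 regions, the arms included. Of the 83 genes that start in the left arm, 63 hold a HindIII motif and 52 of these held a listed site (82.5%, interval 70.9 to 91.0%). Of 90 in the right arm, 72 hold a motif and 63 a listed site (87.5%, interval 77.6 to 94.1%). Over all reproducible chromosome 17 regions the share was 82.8% of 296 genes, which lies within the intervals of both arms. The arms differed by -4.96 points (Fisher's exact test, adjusted p = 0.567), and by -5.87 points over the stretches covered by both replicates (exact test, adjusted p = 0.549). Short genes without a motif, 20 left and 18 right, cannot be scored by this enzyme. Of gene starts with a motif within 5 kb, 68 of 79 left (86.1%) and 67 of 79 right starts (84.8%) had a listed site within that range.

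The 8 left genes with the most sites were spread from Kctd5 to Mapk8ip3. Pkd1, which encodes polycystin-1 (24686895 to 24733459, plus strand), held 8 listed of 13 motifs (61.5%, interval 31.6 to 86.1%). Its neighbour Tsc2, a brake on mTOR signalling that is read from the other strand (24732882 to 24769574), held 7 of 11. The ABC transporter genes Abca17 (24401204 to 24487974) and Abca3 (24488895 to 24547146) lie side by side and held 7 of 24 and 6 of 25, lower shares than those of the other named left genes with sites. Ccnf, for cyclin F, held 6 of 9, the scaffold gene Mapk8ip3 6 of 11 and Pdpk1, a kinase upstream of Akt, 6 of 13. Kctd5, which encodes an adaptor of cullin ubiquitin ligases (24184701 to 24210452), held a site at 5 of 5 motifs. Most of these intervals overlapped, so most of the order is not resolved; those of Kctd5 (47.8 to 100%) and Abca3 (9.36 to 45.1%) did not, a contrast seen only after ranking.

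In the right arm, the transcription regulator gene Trerf1 (47277891 to 47496407, 219 kb) held 31 listed of 63 motifs (49.2%, interval 36.4 to 62.1%). Ccnd3, for cyclin D3 (47642000 to 47736632), held 14 of 20 (70.0%, interval 45.7 to 88.1%). The long record of Med20, a Mediator subunit (47748538 to 47821015), held 16 of 22, but it runs into the deubiquitinase gene Usp49 (13 of 19), and a shorter Med20 record held 3 of 5, so these sites cannot be assigned to 1 gene. Foxp4, a forkhead factor gene, held 10 of 15, and the ubiquitin ligase gene Ubr2 held 10 of 21. Xpo5, the exporter of precursor miRNAs, held 7 of 12 and the tau kinase gene Ttbk1 6 of 9. Polh (6 of 11), Cdc5l (6 of 15) and Zfp318 (6 of 18) tied with Ttbk1 at 6 sites and had lower shares. Over these genes and the 8 named first, the listed share ran from 33.3% in Zfp318 to 72.7% in Med20.

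Of the genes with a motif, 11 left and 9 right genes held 0 listed sites. Those with the most motifs were, on the left, Dcpp2, a salivary protein gene of a repeated family, with 0 of 5 motifs, and the metalloproteinase gene Mmp25 with 0 of 2. Cldn9, Dnase1l2 and Gfer had 0 of 1 each, tied with other left genes and taken in alphabetical order. On the right, 9830107B12Rik had 0 of 3, Mad2l1bp and the TFIID subunit gene Taf8 0 of 2, and 1700001C19Rik and the ribosome assembly gene Bysl 0 of 1, tied with others such as Guca1b and Trem2. With so few motifs a share as high as 52.2% (Dcpp2) or 84.2% (Taf8) is within the exact interval. A listed site lay 163 bp from the Taf8 start and 4 bp from the Mad2l1bp start, outside the gene records.

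**Figure D3:**
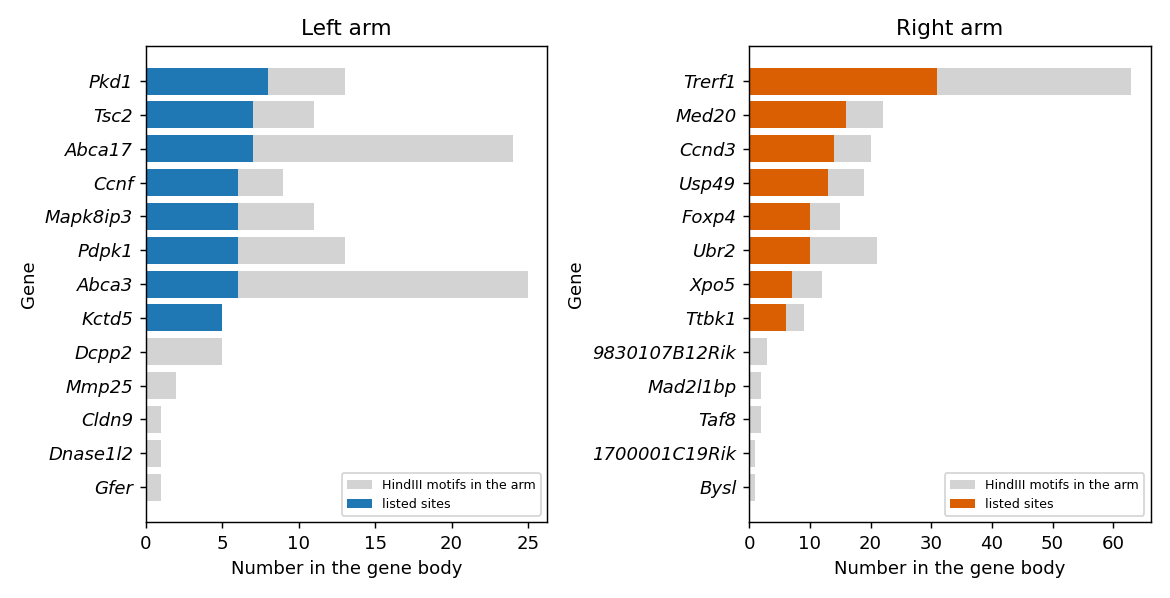
Number of HindIII motifs (grey bars) and of listed sites (coloured bars) within the gene body (x axis) for the named genes (y axis), left arm in blue and right arm in orange, with a separate scale for each arm. Pkd1 leads the left arm with 8 of 13 motifs and Trerf1 the right arm with 31 of 63, and the 5 lowest genes in each panel held 0 listed sites.

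Lists of genes were read in the same way. In the list named for Tsc2 and mTOR signalling, 5 of 5 left genes held a site, with 26 of 46 motifs listed. These are Tsc2, Pdpk1 and the mTOR complex subunit gene Mlst8, together with Pkd1, the neighbour of Tsc2, and Tbc1d24, a gene of vesicle trafficking, which are not known as parts of that pathway. The right member, the phosphatase subunit gene Ppp2r5d, held 3 of 4. The list named for transcription and cell cycle had a site in 4 of 4 left genes and 10 of 11 right genes. Of their motifs, 13 of 18 and 77 of 152 were listed. The left members include the splicing genes Srrm2 (2 of 2) and Rnps1 (2 of 3). The right list includes Srf, with 1 of 1, Zfp318, with 6 of 18, Cdc5l, with 6 of 15, and Tfeb, which the annotation names Tcfeb, with 4 of 6. Taf8 was the member without a site, and Nfya, a subunit of the CCAAT-binding factor NF-Y, held 1 of 5.

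The list named for ribosome and translation had a site in 2 of 3 left and 4 of 5 right genes with a motif. The left member without one is Gfer, a sulfhydryl oxidase gene that is not part of the ribosome or of translation. A listed site lay within 5 kb of 4 of 4 left starts, Gfer included, and 5 of 6 right starts, as at Rps2 (114 bp away) and Mrps34 (50 bp away). The list named for DNA repair and telomeres held a site in 2 of 2 left genes, the repair genes Nthl1 and Eme2, and in 3 of 4 right genes. Of the right members, Polh, the gene of a translesion polymerase, held 6 of 11 motifs, the cullin genes Cul7 and Cul9, which are not repair genes, held 2 of 2 and 5 of 14, and Mad2l1bp, a mitotic checkpoint gene, held 0 of 2.

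Members of gene families also held sites. Serine protease genes of the left arm held a site in 5 of 6 genes with a motif (Prss21, Prss22, Prss32, Prss33 and Prss41), with 7 of 9 motifs listed, and Prss30 held 0 of 1. Of their 7 starts, 5 had a listed site within 5 kb, and those of Prss27, which has no motif in its body, and Prss30 did not. Prss33 and Prss41 lie near Srrm2, a splicing factor gene, with Tceb2 in between. The Trem receptors, known from myeloid cells, held a site in 5 of 6 genes with 6 of 17 motifs listed, and 4 of 7 starts had a listed site within 5 kb. Trem2 held 0 of 1 motif and its start lay 9364 bp from the nearest site. Of the photoreceptor genes, Prph2 held 2 of 5 motifs, Guca1b 0 of 1, and the start of Guca1a lay 29843 bp from a site. The zinc finger and claudin genes of the left arm held a site in 4 of 5 genes, with 5 of 8 motifs listed. The counts of genes may be read against the 82.8% of genes above, those of starts against 86.1% of left and 84.8% of right starts, and those of motifs against 44.6 and 39.0% of motifs. None was tested.

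Listed sites formed short runs of consecutive motifs rather than long blocks. Run length depends on the listed share of an arm (44.6% left, 39.0% right), and no expected length was set beside it. The 174 left sites made up 92 runs and the 364 right sites 195, with mean lengths of 1.89 and 1.87 motifs, and 51 and 108 runs held a single site. Both neighbouring motifs were listed for 41 left sites (23.6%, interval 17.5 to 30.6%) and 82 right sites (22.5%, interval 18.3 to 27.2%), a difference of 1.04 points (Fisher's exact test, adjusted p = 0.826). Another listed site lay within 5 kb of 70.1% of left and 61.0% of right sites (9.13 points, exact test, adjusted p = 0.0658). After a listed motif, the next motif was listed in 47.1% of 174 cases on the left and 46.4% of 364 on the right. After an unlisted motif the shares were 42.3% of 215 and 34.1% of 569. The intervals of this pair overlapped in the left arm (39.5 to 54.8% and 35.6 to 49.2%) and not in the right arm (41.2 to 51.7% and 30.2 to 38.1%). Neighbouring listed sites were 5859 bp apart in the left median and 6596 bp in the right.

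The longest left run held 9 motifs over 29.9 kb (24291895 to 24321826), across Amdhd2, an enzyme gene of amino sugar metabolism, Atp6v0c, a subunit gene of the vacuolar proton pump, and Tbc1d24. In Amdhd2 3 of 3 and in Atp6v0c 2 of 2 motifs were listed. The next run, of 7 motifs (24636364 to 24673496), crossed Caskin1, Traf7 and Rab26, and of 2 runs of 6 motifs, one (23930235 to 23980818) crossed Srrm2, Tceb2, Prss33 and Prss41 and the other Kctd5 and Pdpk1. The longest right runs had 7 motifs each. One lay at 45646129 to 45672246 across the mitochondrial alanyl-tRNA synthetase gene Aars2 and Tcte1, and the other at 45721314 to 45745245 across the nucleoside transporter gene Slc29a1 and Gm7325. A run of 6 motifs at 46793441 to 46837086 crossed Cul7, Rrp36, Klhdc3, Mea1 and Ppp2r5d.

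Runs of unlisted motifs were longer, with a maximum of 22 on the left and 26 on the right. Unlisted motifs were also more frequent, at 216 of 390 and 570 of 934, which by itself makes their runs longer. No expected length was set beside these values. The longest left run (23618574 to 23675636, 57.1 kb) overlapped 0 protein-coding genes, and 11 of its 22 motifs had flanks of 30 bases found beside no other HindIII motif of the genome. The next, of 13 motifs over 46.7 kb, covered Dcpp2 and Dcpp3, where 4 of 13 had unique flanks. In contrast, a run of 13 motifs within Abca3 had 11 with unique flanks. The longest right run (48612868 to 48679285, 66.4 kb) overlapped the long annotated body of Unc5cl, in which 2 of 25 motifs were listed, with unique flanks at 24 of 26 motifs. It was followed by a run of 15 motifs at Treml1 and Nfya, 15 of 15 with unique flanks. The 4 right runs of 13 unlisted motifs overlapped Trem1 (9 with unique flanks), Mrps10, Guca1b, Guca1a and 1700001C19Rik (10), Gm16494 and Gm4945 (12), and 0 genes at 45416900 to 45460890 (13).

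**Figure D4:**
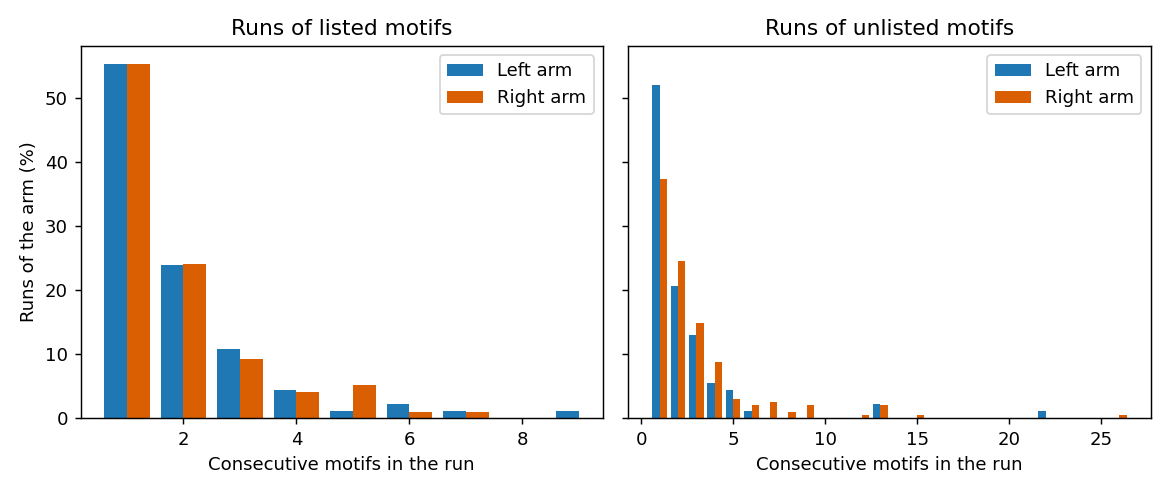
Length of runs of consecutive listed motifs (left panel) and of consecutive unlisted motifs (right panel) in number of motifs (x axis), as a percentage of the runs of each arm (y axis), left arm in blue and right arm in orange. Listed runs reach 9 and 7 motifs and unlisted runs 22 and 26 motifs in the left and right arm.

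Features of the cut sites also moved with listing. Of the motifs with repeated flanks, 0 of 36 were listed on the left (0%, up to 9.74% within the exact interval), and 3 of 53 were on the right (5.66%). Where a DpnII motif lay less than 20 bases from the HindIII motif, as in the unlisted examples beside Prss21 and Trem1, 7 of 36 left motifs (19.4%, interval 8.19 to 36.0%) and 24 of 96 right motifs (25%, interval 16.7 to 34.9%) were listed. At 20 bases or more the shares were 47.2% of 354 and 40.6% of 838. The share was highest at 100 to 200 bases, with 55.4 and 46.1%, and at 400 bases or more it was 39.7 and 29.1%. The part of these features in the differences between genes and windows was not tested.

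**Figure D5:**
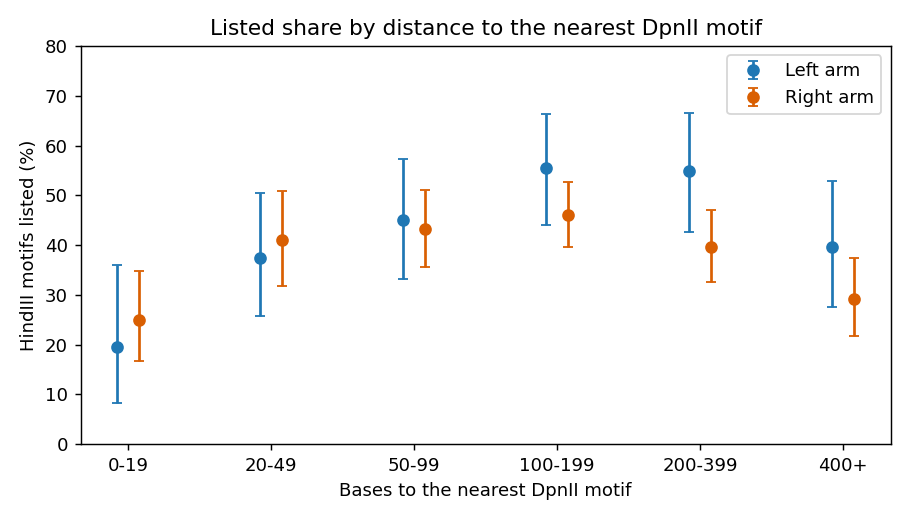
Share of HindIII motifs listed (%, y axis) by the number of bases to the nearest DpnII motif (x axis) in the left (blue) and right (orange) arm; points are shares and bars exact 95% intervals. The lowest shares, 19.4 and 25%, were at less than 20 bases, and the highest, 55.4 and 46.1%, at 100 to 200 bases.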

How the data were processed

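Enzyme-based 4C-Seq libraries of E14 ES cells were represented by 3 deposited files of genome positions on mm9. To make them, the authors took reads carrying the bait primer, aligned what followed it with BWA (version not given in the sources used here) and assigned it to HindIII sites. On the bait chromosome they called regions per replicate, in windows of a fixed number of HindIII sites with a permutation FDR. The sources used here do not say how many reads a listed site needed. The members, gene lists and tests were chosen with earlier results of these data known.

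The NCBIM37 reference, the same assembly as mm9, had a HindIII motif at the start of all 1216 chromosome 17 sites. One site, at 47808464 in the right arm, was 10 bp long in place of 6. Genes came from GENCODE M1, and gene starts were those of protein-coding gene records. Denominators were motifs in the replicate 1 part of regions shared by both replicates, since 0 members lay outside it. Exact (Clopper-Pearson) 95% intervals and two-sided Fisher's exact tests (SciPy 1.17.1, Python 3.11.15) were used, with Benjamini-Hochberg adjustment over 6 tests and a threshold of 0.05. The test and interval functions were tested on simulated data. Named genes were, per arm, the 8 with the most listed sites in the gene body, those in the 3 longest listed runs, up to 5 with the most motifs and no site, and members of the gene lists, of which those in the text are examples; genes named by window or gap are outside this rule and were chosen after their values were seen. Alternatives were unique flanks, stretches covered by both replicates, regions of 1 replicate, other gene sets, distances and cluster definitions. The limits on distance range and on DpnII distance were added after the data were seen.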

Additional observations from a re-analysis of the deposited data

How the results depend on the processing

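Of 39 values computed under another setting, 34 changed neither direction nor call, but 6 of these leave out the regions of replicate 2 and equal the reported values by construction. The site table pools the replicates, so leaving out a replicate changed only the extent of the regions and no site was tied to a replicate. For the share of motifs listed, the left minus right difference of 5.64 points became 8.18 with unique flanks only, which passed the threshold, and ranged from -1.21 to 5.64 (the reported value) with the regions of either replicate left out. The negative value, over the regions of replicate 2, is set by the extent of the table: 62 of the left motifs lie outside the region of replicate 1, where it lists no site. The same holds for the -13 points this setting gave for genes with a site. For sites inside genes, the difference of 10.5 points was 9.72 over stretches covered by both replicates, ranged from the same 9.72 to the reported 10.5 with the regions of either replicate left out, and was 1.96 at the distances of the left region. It did not pass the threshold at 9.72 or 1.96, and the cause was not tested. The differences near gene starts, in neighbouring motifs, in genes with a site and against 15 to 33 Mb kept their direction and call under the other settings run. No paired analysis was possible because both samples belong to 1 group. Without read counts per site, the precision that depth gives to a site cannot be stated.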
